A study of Mus musculus with 8 samples.

Results

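Transcription factors of the B lineage were followed in the leukemias of 8 mice, 4 labelled ROR1xTCL1 and 4 labelled TCL1. The genes were Pax5, Ebf1, Tcf3, Ikzf1, Ikzf3, Spi1, Spib, Foxo1, Bach2 and Pou2af1, chosen by name among the 16419 genes of the deposited gene table with current synonyms allowed. 8 of the 10 were read from that table, Spi1 under its older name SFPI1. Ikzf3 and Spib were measured here through their probe sets. The 10 genes had 157 of the 1236087 probe sets.

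The series used mice with a TCL1 transgene, an oncogene that the series title places under the immunoglobulin heavy chain enhancer (Eµ). This enhancer is active in B cells, and such mice develop a leukemia of B cells like human chronic lymphocytic leukemia. ROR1xTCL1 mice carried 2 transgenes, that for TCL1 and one for ROR1, a surface receptor for Wnt5a. TCL1 mice carried 1, so all 8 leukemias arose with TCL1. Strain, age, and the promoter and species of the ROR1 transgene are not given in the sources used here. RNA of the leukemia cells of each animal was read on 1 Affymetrix Mouse Exon 1.0 ST array, whose probe sets lie along the exons of each gene. Each leukemia is a separate tumour of its own animal, so the spread between the 4 arrays of a group is that between leukemias. The arrays of the gene table are called a to d within each group, and those of the probe set table replicates 1 to 4. Letters and numbers are not matched to each other.

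B cell development runs through a small network of these factors. E2A, the product of Tcf3, and EBF1 open the B lineage program, and PAX5 then commits the cell by activating B cell genes and silencing those of other lineages. FOXO1 acts with E2A and EBF1 in early B cells and is held outside the nucleus when AKT is active. The zinc finger proteins Ikaros (Ikzf1) and Aiolos (Ikzf3) and the ETS family proteins PU.1 (Spi1) and SPI-B (Spib) work beside them, OCA-B (Pou2af1) is a coactivator of the octamer-binding factors, and BACH2 restrains plasma cell differentiation by repressing Prdm1.

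Promoters of the factors are shown for Pax5 and Tcf3, the pair whose values were most closely correlated across the leukemias, and for Foxo1, which held a palindrome of the kind EBF1 binds. Each is the 250 bases before a start site in RefSeq on GRCm38.p6, written 5′ to 3′ on the strand of the gene, with capitals marking a match to a searched motif. Pax5 lies at chr4:44710695-44710944 on the minus strand, Tcf3 at chr10:80433636-80433885 on the minus strand and Foxo1 at chr3:52268087-52268336 on the plus strand. The Tcf3 window precedes an alternative start inside the gene, whose outermost RefSeq base is 80433976.
Pax5: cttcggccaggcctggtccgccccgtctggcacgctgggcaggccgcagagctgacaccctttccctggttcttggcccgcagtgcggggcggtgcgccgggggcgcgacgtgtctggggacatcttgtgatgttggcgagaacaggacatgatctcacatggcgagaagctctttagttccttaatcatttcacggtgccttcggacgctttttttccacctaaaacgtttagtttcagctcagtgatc
Tcf3: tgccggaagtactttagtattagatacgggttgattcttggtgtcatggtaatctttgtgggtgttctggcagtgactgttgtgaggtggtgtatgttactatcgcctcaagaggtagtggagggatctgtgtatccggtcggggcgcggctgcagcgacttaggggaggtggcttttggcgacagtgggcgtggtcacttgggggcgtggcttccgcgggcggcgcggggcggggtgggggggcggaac
Foxo1: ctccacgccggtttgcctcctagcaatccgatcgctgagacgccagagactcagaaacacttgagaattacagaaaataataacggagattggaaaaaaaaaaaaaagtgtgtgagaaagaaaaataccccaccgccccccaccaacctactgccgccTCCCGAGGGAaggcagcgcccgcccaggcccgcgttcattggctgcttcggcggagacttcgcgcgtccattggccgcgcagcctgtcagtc

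Few matches to binding motifs of the factors were found in these windows. The letters searched on both strands were CAGGTG for the E-box of E2A, TCCC and GGGA 2 bases apart for EBF1, ATGCAAAT for the octamer that OCA-B joins, GAGGAAGT for PU.1 and SPI-B, TGGGAA for Ikaros, TAAACA for FOXO and TGAGTCA for BACH factors. They occurred in 17.2%, 0.779%, 1.6%, 2.44%, 21.6%, 12% and 4.46% of 32851 promoters of the same length. RefSeq promoters were matched for 8 of the 10 factors, 10 promoters in all. Foxo1 held the EBF1 palindrome TCCCGAGGGA from base -92 to -83, counted from the start site. An alternative promoter of Ebf1 held the Ikaros motif as TTCCCA from -207 to -202. No other match was found in the 10 windows, those of Pax5 and Tcf3 included, and the 2 matches overlap no other. A match is a run of letters, not a measured site, and no binding was measured in these samples. Ebf1 and Foxo1 had an r of 0.49 over the 8 arrays (exact permutation p = 0.215, adjusted p = 0.669) and a rho of 0.52 (exact permutation p = 0.197, adjusted p = 0.727). That r was 0.26 without TCL1 array b, 0.78 without TCL1 array d and 0.0029 without ROR1xTCL1 array c and TCL1 array b together.

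The labelled cell type was checked against its markers. The B cell marker Ms4a1 (CD20) lay between 10.66 and 10.96 on the log2 scale over the 8 arrays. Cd79a, a signalling chain of the B cell receptor, lay between 11.54 and 11.88. Cd5, which marks B-1 cells and chronic lymphocytic leukemia, lay between 7.27 and 7.87. Gene medians were 5.03 to 5.09 on all arrays, and each of the 8 factors of the gene table lay on every array above the upper quartile of all genes on it (6.76 to 6.87). Levels of different genes were not ranked, since probes differ in how strongly they bind. Ror1 read 4.07, 4.85, 4.25 and 4.49 in ROR1xTCL1 and 3.67, 3.68, 3.72 and 4.03 in TCL1, with no overlap and a difference of 0.64 ± 0.18 (SE; limma adjusted p = 1.0). These values lie below the median gene of every array and are not shown to exceed background. By 3 Y-linked genes ROR1xTCL1 arrays c and d and TCL1 array c read as male (6.32 to 7.28) and the other 5 as female (2.39 to 2.69).

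No factor differed between ROR1xTCL1 and TCL1 leukemias beyond the spread between animals, and the groups overlapped for all 10. Log2 differences, ROR1xTCL1 minus TCL1, ran from -0.13 for Bach2 to 0.09 for Foxo1. With limma, adjusted over all genes, 0 of the 8 genes of the gene table passed an adjusted p of 0.05, beside 0% of all 16419 genes. 0 of the 8 had an unadjusted p under 0.05, beside 1.63% of all genes, and 0 of the 8 had groups that did not overlap, beside 1.1%. Of Ikzf3 and Spib, 0 of 2 passed either threshold and 0 of 2 lacked overlap, beside 0%, 1.89% and 1.21% of the 22378 genes made as means of their probe sets. Adjusted p was 1.0 for each of the 10, and exact 2-sided permutation p lay between 0.257 for Ikzf3 and 0.886 for Ebf1 and Ikzf1. With 4 against 4 arrays the smallest p such a test can give is 0.0286.

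The initiating factors and the commitment factor had overlapping values in both groups. Ebf1 read 9.54, 9.91, 9.97 and 9.54 in ROR1xTCL1, against 9.60, 10.12, 9.41 and 9.64 in TCL1. Its highest and its lowest array were both of TCL1, and the log2 difference was 0.05 ± 0.18 (SE; limma adjusted p = 1.0). Tcf3 read 7.69, 6.78, 7.82 and 7.58 in ROR1xTCL1, against 7.17, 7.51, 8.07 and 7.61 in TCL1. ROR1xTCL1 array b stood lowest and TCL1 array c highest, 2.44-fold apart, and the groups differed by -0.12 ± 0.26 (SE; limma adjusted p = 1.0). Pax5 read 9.72, 9.44, 10.03 and 9.59 in ROR1xTCL1, against 9.31, 9.71, 9.996 and 9.62 in TCL1. Array c was the highest of each group, and the difference was 0.03 ± 0.18 (SE; limma adjusted p = 1.0).

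Foxo1 and the Ikaros family were read next. Foxo1 read 8.62, 8.67, 8.71 and 8.57 in ROR1xTCL1, against 8.53, 8.80, 8.65 and 8.25 in TCL1. The 4 ROR1xTCL1 arrays lay inside the range of the TCL1 arrays, and the difference was 0.09 ± 0.13 (SE; limma adjusted p = 1.0). Ikzf1 read 9.37, 9.31, 9.59 and 9.52 in ROR1xTCL1, against 9.50, 9.81, 9.37 and 9.01 in TCL1. TCL1 again held both extremes, in arrays b and d, with a difference of 0.02 ± 0.17 (SE; limma adjusted p = 1.0). Ikzf3, as the mean of its 20 probe sets, read 9.01, 8.82, 8.93 and 8.72 in ROR1xTCL1 replicates 1 to 4, against 8.82, 8.97, 9.03 and 9.03 in TCL1 replicates 1 to 4. It had the smallest permutation p of the 10, with overlapping groups and a difference of -0.09 ± 0.11 (SE; limma adjusted p = 1.0).

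The ETS factors PU.1 and SPI-B bind like sequences. Spi1 read 8.74, 8.73, 8.84 and 8.74 in ROR1xTCL1, against 9.03, 8.60, 8.95 and 8.82 in TCL1. The ROR1xTCL1 arrays lay inside the TCL1 range, with an SD of 0.05 in ROR1xTCL1 and 0.19 in TCL1 (n = 4 each), and the difference was -0.09 ± 0.11 (SE; limma adjusted p = 1.0). As means of probe sets the SD of Spi1 was 0.16 in ROR1xTCL1 and 0.25 in TCL1, so the narrow ROR1xTCL1 spread was not seen there. Spib, as the mean of its 7 probe sets, read 9.24, 9.05, 9.59 and 9.51 in ROR1xTCL1 replicates 1 to 4, against 9.25, 9.61, 8.75 and 9.91 in TCL1 replicates 1 to 4. TCL1 replicates 3 and 4 were the lowest and the highest of the 8, 2.22-fold apart, and the groups differed by -0.03 ± 0.24 (SE; limma adjusted p = 1.0). On this table the pooled within-group SD was 0.39 for Spib and 0.21 for Spi1.

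Of the factors known mainly from mature B cells, Pou2af1 read 10.45, 9.12, 9.69 and 10.02 in ROR1xTCL1, against 9.79, 9.78, 9.87 and 10.15 in TCL1. Both its extremes were ROR1xTCL1 arrays, a and b, which were 2.51-fold apart, and the SD was 0.56 in ROR1xTCL1 and 0.17 in TCL1 (n = 4 each). The difference was -0.08 ± 0.25 (SE; limma adjusted p = 1.0). Bach2 read 7.05, 7.47, 7.80 and 7.62 in ROR1xTCL1, against 7.20, 8.11, 7.19 and 7.95 in TCL1. TCL1 arrays b and d stood above all 4 ROR1xTCL1 arrays and TCL1 arrays a and c below 3 of them, and the difference was -0.13 ± 0.25 (SE; limma adjusted p = 1.0).

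**Figure D1:**
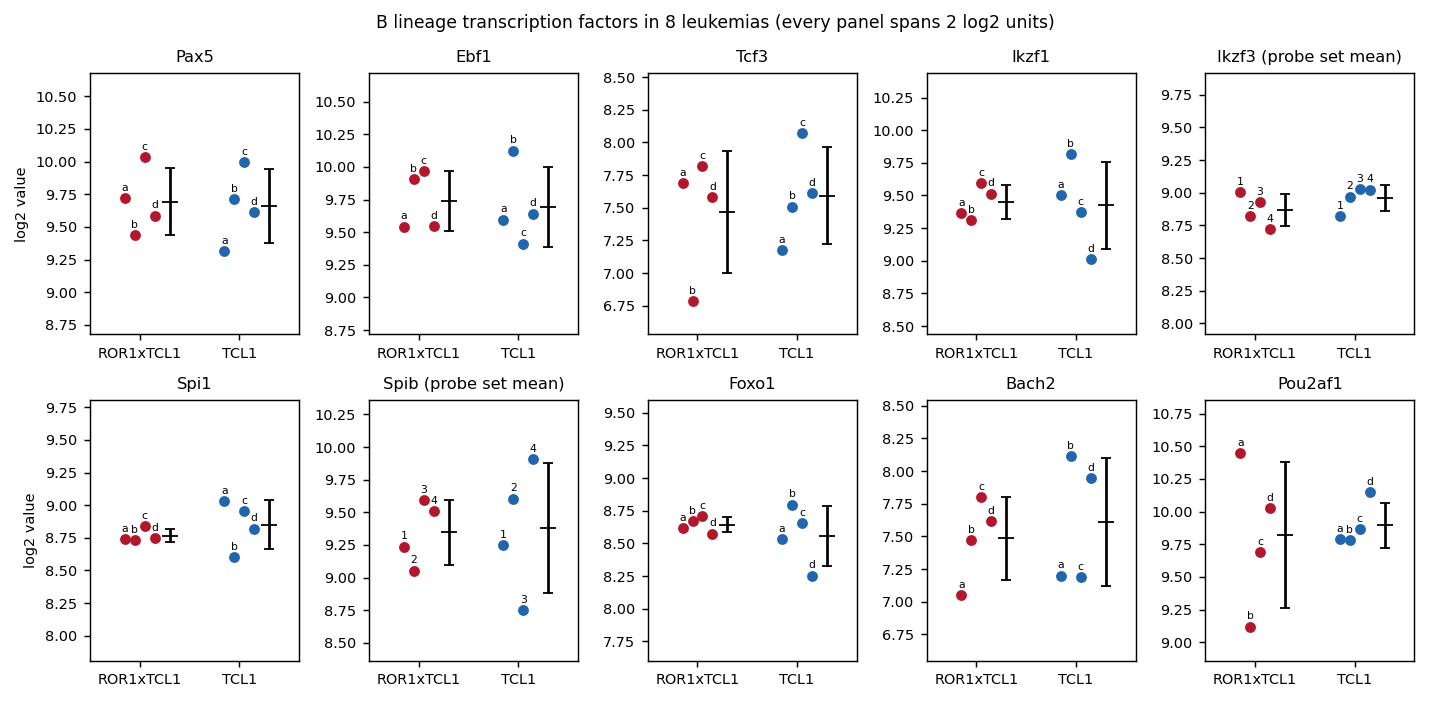
Log2 values of the 10 factors on each array of ROR1xTCL1 (red, left) and TCL1 (blue, right) leukemias, in panels that each span 2 log2 units; letters or numbers name the arrays, and bars give the group mean with its SD (n = 4 each). The groups overlap in every panel, and the points of Tcf3, Pou2af1, Bach2 and Spib spread furthest.

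The 95% limma intervals show how large a group difference these arrays leave room for. They reached furthest for Tcf3, from -0.71 to 0.46 on the log2 scale, so that a difference of up to 1.63-fold lay within it. For Bach2 the largest fold within the interval was 1.62, for Pou2af1 1.57 and for Spib 1.49. The intervals of Ebf1, Pax5, Ikzf1, Foxo1, Spi1 and Ikzf3 reached 1.36-fold, 1.35-fold, 1.32-fold, 1.30-fold, 1.27-fold and 1.26-fold. A 2-fold difference in the mean lay outside all 10 intervals. The sign of the difference turned when 1 array was left out for 8 of the 10 factors, all but Ikzf3 and Spi1. For Pou2af1 it was -0.29 without ROR1xTCL1 array a and 0.16 without ROR1xTCL1 array b.

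**Figure D2:**
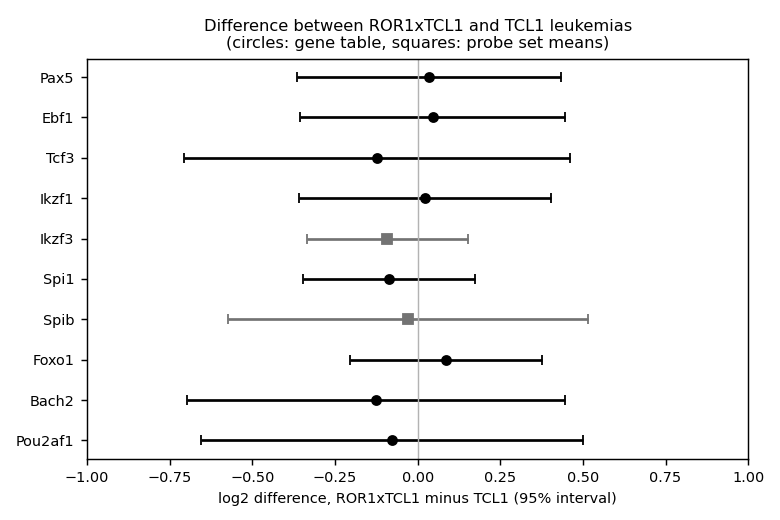
Log2 difference of each factor, ROR1xTCL1 minus TCL1 (horizontal axis), with its 95% limma interval; circles come from the gene table and squares from means of probe sets. All 10 intervals include 0, and that of Tcf3 is the widest, from -0.71 to 0.46.

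The factors differed in how far they varied between leukemias of the same group. The pooled within-group SD was 0.42 for Tcf3, 0.41 for Pou2af1 and 0.41 for Bach2 on the log2 scale, higher than in 85.5%, 85.0% and 84.8% of all genes. That of Spib was 0.39, higher than in 83.0% of the genes made from probe sets. Ebf1 and Pax5 both stood at 0.27 and Ikzf1 at 0.25, higher than in 63.9%, 63.8% and 60.0% of all genes. Foxo1 (0.17) and Spi1 (0.14) varied little, with 31.7% and 18.7% of genes below them. Ikzf3 varied least, at 0.11 with 9.35% of the genes made from probe sets below it. That SD is of a mean over 20 probe sets with a median correlation of only 0.10 between them. The part of the averaging in the low SD was not tested. The median over all genes was 0.22, and among the 1642 genes of highest level, which held Pax5, Ebf1, Ikzf1, Spi1, Foxo1 and Pou2af1, it was 0.24. These are descriptions with no test. With means of probe sets in place of the gene table the percentile was 43.5% for Spi1, 49.2% for Ebf1 and 45.8% for Ikzf1, the last 2 now below the median gene. It was 76.5% for Bach2, 89.8% for Tcf3, 87.3% for Pou2af1, 63.5% for Pax5 and 21.9% for Foxo1.

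**Figure D3:**
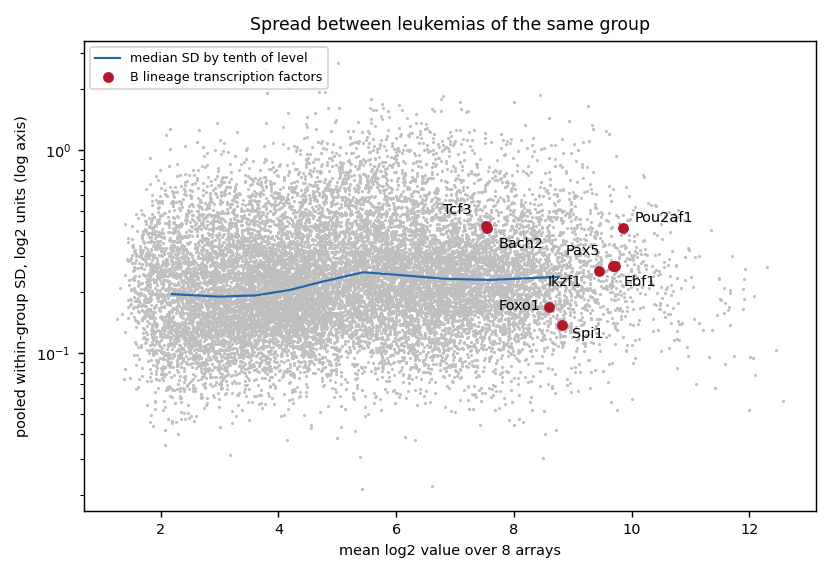
Pooled within-group SD in log2 units (vertical, log axis) against the mean log2 value over 8 arrays (horizontal) for each gene of the gene table (grey), with the 8 factors read from it in red; the blue line joins the median SD of genes binned by level. Tcf3, Bach2 and Pou2af1 lie well above the line at 0.41 to 0.42, and Spi1 lies below it at 0.14.

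Probe sets showed which of these excursions were shared by most probe sets of a gene. OCA-B's gene Pou2af1 was lowest in ROR1xTCL1 replicate 2 at 12 of its 12 probe sets, by a median of -0.77 log2 units from the probe set mean, and highest in ROR1xTCL1 replicate 1 at 9 of 12. Probe set 5410617, chosen as an example after its values were seen, read 12.26, 11.10, 11.68 and 12.01 in ROR1xTCL1 replicates 1 to 4, against 11.73, 11.83, 11.87 and 12.01 in TCL1 replicates 1 to 4. Replicate 2 of ROR1xTCL1 lay below the other 7 there too. Tcf3 was lowest in ROR1xTCL1 replicate 2 at 22 of 25 probe sets (median deviation -0.85) and highest in TCL1 replicate 3 at 17 of 25 (median deviation 0.65). Spib was lowest in TCL1 replicate 3 at 6 of 7 and highest in TCL1 replicate 4 at 5 of 7. The median correlation between probe sets of the same gene over the 8 arrays was 0.87 for Pou2af1, 0.73 for Tcf3 and 0.73 for Spib. These probe sets share a transcript and its array, so they are not replicates of a leukemia.

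Other factors had a less uniform course. The median correlation between probe sets was 0.57 for Pax5, 0.47 for Spi1, 0.46 for Ebf1 and 0.45 for Bach2, and only 0.15 for Ikzf1, 0.10 for Ikzf3 and -0.06 for Foxo1. Ikzf1 was lowest in TCL1 replicate 4 at 7 of 20 probe sets and highest in that replicate at 3. Its probe sets 4362942 and 5302285 were chosen as examples after their values were seen. Probe set 4362942 read 8.48, 8.91, 8.97 and 9.34 in ROR1xTCL1 replicates 1 to 4, against 8.35, 7.60, 8.96 and 9.89 in TCL1 replicates 1 to 4. TCL1 replicates 2 and 4 were the lowest and the highest of the 8 there. Probe set 5302285 read 5.56, 4.96, 6.43 and 6.21 in ROR1xTCL1 replicates 1 to 4, against 5.43, 5.01, 5.99 and 4.44 in TCL1 replicates 1 to 4, so that TCL1 replicate 4 was now lowest. Ikaros is made in several isoforms by alternative splicing, and the annotation used here does not say which exon a probe set reads.

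ROR1xTCL1 replicate 2, low for both Tcf3 and Pou2af1, had the lowest spread of values over the genes made from probe sets, with an SD of 1.83 against 1.86 to 1.95 on the other 7 arrays. In the gene table ROR1xTCL1 array b, low for the same 2 genes, likewise had the lowest SD over genes, 2.02 against 2.04 to 2.13. The part of this in the low values was not tested. Among the ROR1xTCL1 arrays of the gene table, array b was the lowest for Pax5, Tcf3, Ikzf1, Spi1 and Pou2af1, and not for Ebf1, Foxo1 and Bach2. As means of probe sets, replicate 2 was the lowest ROR1xTCL1 array for these same genes and for Spib and Foxo1, and not for Ebf1, Ikzf3 and Bach2.

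Between the groups, 0 of the 157 probe sets of the 10 genes passed an adjusted p of 0.05, beside 0% of all 1236087 (limma). 0 of 157 had an unadjusted p under 0.05, beside 3.3% of all, and 1 of 157 had groups that did not overlap, beside 1.97%. That was Foxo1 probe set 4426656, named after its values were seen. It read 5.44, 5.53, 5.60 and 5.38 in ROR1xTCL1, against 5.22, 5.16, 4.50 and 5.10 in TCL1 (replicates 1 to 4). All ROR1xTCL1 replicates were higher, by 0.49 ± 0.25 on average (SE; limma adjusted p = 1.0). Differences over the gene's 9 probe sets ran from -0.38 to 0.49, with 5 above and 4 below 0.

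**Figure D4:**
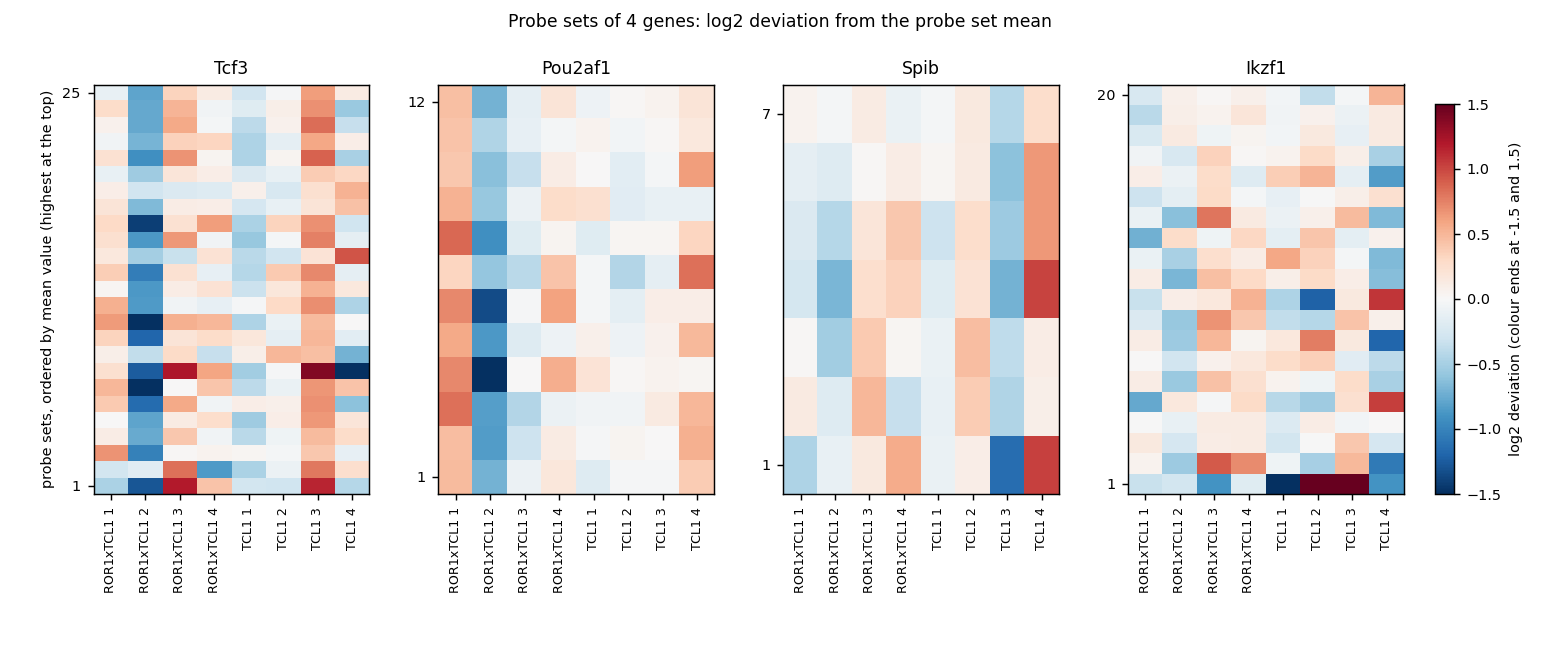
Log2 deviation of each probe set from its own mean over the 8 arrays (colour, ends at -1.5 and 1.5), for Tcf3, Pou2af1, Spib and Ikzf1; rows are probe sets ordered by mean value and columns are replicates, ROR1xTCL1 left and TCL1 right. ROR1xTCL1 replicate 2 is lowest at 22 of 25 rows of Tcf3 and 12 of 12 of Pou2af1, while the rows of Ikzf1 differ in course.

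The factors had no common course across the leukemias. Of the 28 pairs among the 8 factors of the gene table, 16 had a Pearson r above 0 and 12 below 0 over the 8 arrays, with a median of 0.02. For r, 2 pairs had an exact permutation p under 0.05, and 0 did after Benjamini-Hochberg adjustment over the 28. With means of probe sets and all 10 factors, 30 of 45 pairs were above 0 and 15 below, 4 pairs had an exact permutation p under 0.05, and 0 did after adjustment over the 45. These 4 were Pax5 and Tcf3, Tcf3 and Ikzf1, Ebf1 and Spi1, and Ebf1 and Bach2. Their r was 0.85, 0.72, -0.74 and 0.75, against 0.84, 0.04, -0.59 and 0.70 in the gene table. For Tcf3 and Ikzf1 the r thus differed between the gene table and the means of probe sets, and the cause was not tested.

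Pax5 and Tcf3 were the pair most closely tied. Their r was 0.84 (exact permutation p = 0.00952, adjusted p = 0.267) and their Spearman rho 0.88 (exact permutation p = 0.00724, adjusted p = 0.203). Array c of each group was highest for both genes, and ROR1xTCL1 array b and TCL1 array a were lowest for both. Without the arrays farthest from the median of Pax5, ROR1xTCL1 c and TCL1 a, r was 0.89. Leaving out 1 array at a time gave 0.78 to 0.91, and deviations from the group means gave 0.87. With means of probe sets r was 0.85 (exact permutation p = 0.00419, adjusted p = 0.189). The relation missed the threshold after adjustment in both tables. The arrays highest for both genes read as male by Y-linked genes. ROR1xTCL1 array d, which also read as male, was not high for either. It read 9.59 for Pax5 and 7.58 for Tcf3, below the medians over the 8 arrays (9.66 and 7.60). The part of sex in the relation was not tested.

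Ikzf1 and Foxo1 had an r of 0.82 (exact permutation p = 0.0202, adjusted p = 0.283) and a rho of 0.57 (exact permutation p = 0.151, adjusted p = 0.727). This rested on TCL1 arrays b and d, which held the highest and the lowest value of both genes: without them r was -0.11. Ebf1 and Bach2 had an r of 0.70 (exact permutation p = 0.0586, adjusted p = 0.547) and a rho of 0.81 (exact permutation p = 0.0218, adjusted p = 0.305), and r was 0.34 without ROR1xTCL1 array c and TCL1 array b. Tcf3 and Pou2af1, both low on ROR1xTCL1 array b, had an r of 0.62 (exact permutation p = 0.105, adjusted p = 0.669) and a rho of 0.40 (exact permutation p = 0.327, adjusted p = 0.727). Without ROR1xTCL1 array b their r was 0.07. Ebf1 and Tcf3, the initiating pair, had an r of -0.35 (exact permutation p = 0.394, adjusted p = 0.924) and a rho of -0.43 (exact permutation p = 0.299, adjusted p = 0.727). This r depended on single arrays: it was -0.54 without ROR1xTCL1 array c, -0.11 without TCL1 array c and -0.91 without ROR1xTCL1 array c and TCL1 array b together.

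**Figure D5:**
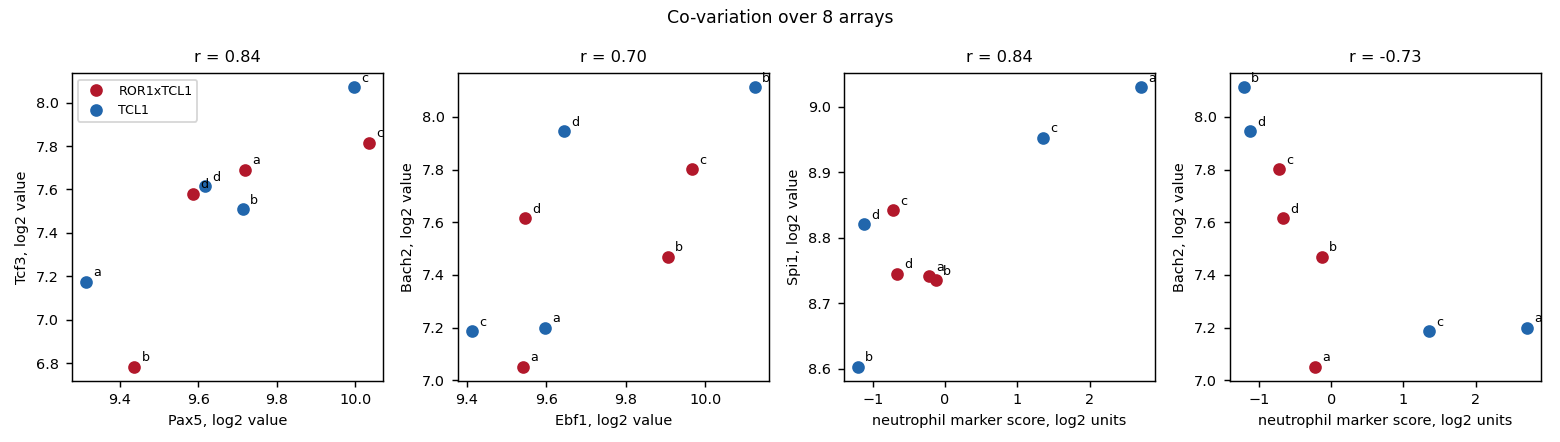
Values of 8 arrays for Pax5 and Tcf3, Ebf1 and Bach2, and Spi1 and Bach2 against the neutrophil marker score (log2 units; ROR1xTCL1 red, TCL1 blue, letters name the arrays). Tcf3 is higher where Pax5 is higher (r = 0.84), while the 2 panels on the right are spread out by TCL1 arrays a and c, whose marker scores are 2.71 and 1.35.

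Because PU.1 is also made in myeloid cells, the factors were set beside markers of other cells. Fewer cells of a type and less RNA per cell cannot be told apart in such bulk samples. The neutrophil and granulocyte precursor score, the mean log2 deviation of 13 measured of 14 listed markers from their means, was -0.22, -0.13, -0.73 and -0.67 in ROR1xTCL1, against 2.71, -1.20, 1.35 and -1.12 in TCL1. TCL1 arrays a and c stood above and TCL1 arrays b and d below all ROR1xTCL1 arrays. The summed level of these markers lay between 9.88 and 10.67 on the log2 scale in ROR1xTCL1 and between 9.20 and 13.58 in TCL1. The mean of each of the 13 was lower in ROR1xTCL1, with a median log2 difference of -0.88. Of the 13, 0 passed the threshold, beside 0% of all genes. A log2 array scale has no true zero, so no marker can be said to be absent. The granule protease gene Elane, for example, read 5.89, 5.98, 5.74 and 5.18 in ROR1xTCL1, against 8.64, 5.38, 7.45 and 5.27 in TCL1.

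Spi1 followed this score with an r of 0.84 (exact permutation p = 0.00809, adjusted p = 0.259 over 32 pairs) and a rho of 0.55 (exact permutation p = 0.171, adjusted p = 0.887). Its 2 highest values, 9.03 and 8.95, were on TCL1 arrays a and c, and its lowest, 8.60, on TCL1 array b. Without TCL1 arrays a and b, r was 0.60. Bach2 ran the other way, with an r of -0.73 (exact permutation p = 0.0328, adjusted p = 0.525) and a rho of -0.83 (exact permutation p = 0.0154, adjusted p = 0.492). Without ROR1xTCL1 array a and TCL1 array b, its r was -0.90. Of the 32 pairs of a factor with the neutrophil, erythroid, T cell and plasma cell scores, 0 passed after adjustment. In the gene table Ebf1 had an r of -0.50 with the neutrophil score (exact permutation p = 0.201, adjusted p = 0.971). On means of probe sets r was -0.63 for Ebf1, -0.64 for Spib and -0.69 for Bach2. Exact permutation p was 0.087, 0.0901 and 0.0504 (adjusted p = 0.777 each). Their rho was -0.81, -0.81 and -0.86 (exact permutation p = 0.0218, 0.0218 and 0.0107, adjusted p = 0.290 each). On the same means Spi1 had an r of 0.74 with the neutrophil score (exact permutation p = 0.0346, adjusted p = 0.777). Its rho there was 0.76 (exact permutation p = 0.0368, adjusted p = 0.368). Of 40 pairs on those means, 0 passed after adjustment. Monocytes and macrophages also make PU.1, and their score over 12 markers was added after the data were seen. It was 0.81, -0.24, -0.46 and -0.51 in ROR1xTCL1, against 1.11, 0.18, 0.01 and -0.89 in TCL1. It was highest on TCL1 array a, as Spi1 was, and next on ROR1xTCL1 array a. The mean of 1 of the 12 markers was higher in ROR1xTCL1 and those of 11 were lower, with a median log2 difference of -0.18. Of the 12, 0 passed the threshold, beside 0% of all genes. The summed level of these markers lay between 9.80 and 11.11 in ROR1xTCL1 and between 9.93 and 11.63 in TCL1. With this score Spi1 had an r of 0.28 (exact permutation p = 0.513, adjusted p = 0.952 over 40 pairs) and a rho of 0.07 (exact permutation p = 0.882, adjusted p = 0.980), and r was -0.13 without TCL1 arrays a and b. Bach2 had an r of -0.63 (exact permutation p = 0.096, adjusted p = 0.952) and a rho of -0.52 (exact permutation p = 0.197, adjusted p = 0.960), and r was -0.82 without ROR1xTCL1 array a and TCL1 array b. The part of other cells in the values of Spi1, Bach2, Ebf1 and Spib was not tested. Pou2af1 had an r of 0.61 with the erythroid score (exact permutation p = 0.116, adjusted p = 0.971) and a rho of 0.36 (exact permutation p = 0.389, adjusted p = 0.887), and ROR1xTCL1 arrays a and b were the highest and the lowest of both measures. Without these arrays r was -0.65.

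The genes most like each factor over the 8 arrays were looked up among 4968 genes (4969 for Spi1 and Foxo1) above the median level with an SD of at least 0.2. For Pax5 they were Spen, a transcriptional corepressor (r = 0.96), Asb13 (0.94) and Wdr83 (0.94). For Tcf3 they were the histone methyltransferase gene Ezh1 (0.94) and the apoptosis regulators Bcl2 (0.92) and Bid (0.92). Bcl2, which protects cells from death, read 7.64, 7.15, 8.06 and 7.73 in ROR1xTCL1, against 7.56, 7.68, 8.13 and 7.60 in TCL1. Its lowest array, ROR1xTCL1 b, and its highest, TCL1 c, were those of Tcf3. For Ebf1 they were Flcn, the folliculin gene (0.97), Btbd7 (0.95) and Phtf2 (0.92). For Foxo1 they were Lpp (0.95), Bckdhb (0.94) and Plgrkt (0.94). For Ikzf1 they were Hibadh (0.96), Arpc5 (0.95), of the actin-nucleating Arp2/3 complex, and Homer1 (0.94). For Spi1 they were the ETS family repressor Etv6 (0.90), Slc27a4 (0.89) and Dstn (0.89). For Bach2 they were Phka1 (0.95), Snx25 (0.93) and Zfp318 (0.92), which is needed for surface IgD in mature B cells. For Pou2af1 they were the deubiquitinase gene Josd1 (0.96), Cep70 (0.96) and Pdzd11 (0.90). An r above 0.9 was reached by 15 genes for Ikzf1, 13 for Foxo1, 11 for Pax5, 9 for Tcf3, 6 for Bach2, 4 for Ebf1, 2 for Pou2af1 and 0 for Spi1. The likeness was computed from 8 arrays against many genes and is given as a description.

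Partners and regulators of the 10 factors were read from a list of 30 other B lineage transcription factors. All 30 were measured, 13 lay above and 17 below 0, with a median log2 difference of -0.03, and 0 were called. Over all genes 7536 lay above and 8883 below 0, with a median of -0.01 and 0 called. Bcl6, the repressor of the germinal centre program, read 6.70, 6.33, 7.09 and 6.45 in ROR1xTCL1, against 6.55, 6.33, 6.22 and 5.68 in TCL1, a difference of 0.45 ± 0.22 (SE; limma adjusted p = 1.0). The groups overlapped. Pou2f1 (OCT1), an octamer-binding partner of OCA-B, read 8.91, 8.82, 8.70 and 8.56 in ROR1xTCL1, against 8.82, 9.06, 8.91 and 9.19 in TCL1, a difference of -0.25 ± 0.12 (SE; limma adjusted p = 1.0). Here too the groups overlapped. Runx1 differed by -0.46 ± 0.27 and Ets1 by 0.18 ± 0.14 (SE).

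Direct partners of the factors are added here after their values were seen. Tcf12 (HEB) and Tcf4 (E2-2), the other E proteins, differed by -0.01 ± 0.12 and -0.07 ± 0.18 (SE). Id3, which binds E proteins and keeps them off DNA, read 7.33, 5.61, 5.42 and 5.10 in ROR1xTCL1, against 6.63, 6.13, 5.48 and 7.25 in TCL1. Its values spread over more than 2 log2 units, with ROR1xTCL1 array a and TCL1 array d on top, and the difference was -0.51 ± 0.52 (SE). Id2, of the same family, differed by -0.30 ± 0.26 and Pou2f2 (OCT2), the other octamer-binding partner of OCA-B, by 0.03 ± 0.25 (SE).

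Genes that these factors control were read in the same way. Here and in the lists below, a count of 0 called stands beside 0% of all 16419 genes. Of 20 listed genes activated by PAX5 and EBF1, 19 were measured, 11 lay above and 8 below 0, with a median log2 difference of 0.01 and 0 called. The 19 include Bach2, itself a factor of the set. The adaptor gene Blnk differed by -0.14 ± 0.11, the low-affinity IgE receptor Fcer2a by 0.42 ± 0.33, Cd79a by -0.12 ± 0.10 and Vpreb3, of the pre-B lymphocyte protein family, by -0.46 ± 0.42 (SE). Of 11 genes repressed by PAX5, all 11 were measured, 4 lay above and 7 below 0, with a median of -0.12 and 0 called. This median was 0.05 without ROR1xTCL1 array b, 0.10 without TCL1 array a and -0.27 without TCL1 array d. Slamf6, a receptor of the SLAM family, read 9.13, 8.30, 9.12 and 8.60 in ROR1xTCL1, against 9.08, 9.02, 9.54 and 9.37 in TCL1. The 2 lowest arrays were ROR1xTCL1 b and d, the groups overlapped, and the difference was -0.47 ± 0.21 (SE; limma adjusted p = 1.0). The integrin gene Itgal differed by -0.12 ± 0.14, the chemokine gene Ccl3 by -0.28 ± 0.35 and the cytokine receptor gene Flt3 by -0.12 ± 0.23 (SE).

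The early B cell program, which E2A, EBF1 and FOXO1 switch on in precursors, was read from a list of precursor genes. Of 11 pro-B and pre-B cell genes 9 were measured, 4 lay above and 5 below 0, with a median log2 difference of -0.05 and 0 called. Vpreb1 and Igll1 were not among the 9. The recombinase gene Rag1 read 3.79, 4.12, 3.64 and 3.74 in ROR1xTCL1, against 3.69, 3.69, 3.43 and 3.77 in TCL1. These values lie near the arrays' lower quartile of all genes (3.52 to 3.71) and are not shown to exceed background. Il7r, the interleukin 7 receptor gene, read 6.98, 7.57, 9.11 and 8.81 in ROR1xTCL1, against 8.72, 7.42, 7.42 and 6.17 in TCL1. Its values spread over more than 2 log2 units within each group, with a difference of 0.69 ± 0.60 (SE). Il7r is also expressed by T cells, and its 3 highest arrays, ROR1xTCL1 c and d and TCL1 a, had the 3 highest T cell scores (0.34, 0.36 and 0.64), whose part in it was not tested. Erg differed by -0.15 ± 0.15 and Cd93 by -0.35 ± 0.37 (SE). Their means, 3.78 and 4.26, lie below the median gene of every array and are not shown to exceed background. With means of probe sets all 11 genes were measured, and 3 lay above and 8 below 0. The median was then -0.09, the lowest difference was -0.62 for Igll1, and 0 were called. Of the 11, 1 had an unadjusted limma p under 0.05, beside 1.89% of all genes made from probe sets.

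FOXO1 targets and the plasma cell program that BACH2 holds back were the remaining groups. Of 14 listed FOXO1 target genes 13 were measured, 6 lay above and 7 below 0, with a median log2 difference of -0.01 and 0 called. They share Bcl6, Klf2, Rag1, Rag2 and Il7r with the groups above, and S1pr1, a receptor for lymphocyte exit, differed by 0.20 ± 0.24 (SE). Of 12 BACH2-repressed and plasma cell genes 11 were measured, 7 lay above and 4 below 0, with a median of 0.11 and 0 called. The median turned to -0.18, with 2 genes above 0, without ROR1xTCL1 array d, and to -0.20, with 4 above 0, without TCL1 array d. Edem1 and Derl3, of endoplasmic reticulum quality control, differed by 0.33 ± 0.36 and 0.44 ± 0.65, the haem oxygenase gene Hmox1 by -0.45 ± 0.65 and Irf4, a driver of plasma cell differentiation, by 0.13 ± 0.21 (SE). Prdm1, the direct BACH2 target, is added after its values were seen. It read 8.61, 8.52, 8.27 and 8.71 in ROR1xTCL1, against 8.997, 9.09, 8.69 and 7.82 in TCL1. TCL1 array d was lowest and TCL1 array b highest, and both were arrays with high Bach2 (7.95 and 8.11).

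Transcription factors of other blood lineages were read last. Of 18 listed, 16 were measured, 8 lay above and 8 below 0, with a median log2 difference of 0.02 and 0 called. Cebpe, of granulocyte maturation, was the 1 gene of the 16 with an unadjusted limma p under 0.05, beside 1.63% of all genes. It read 4.67, 4.66, 4.28 and 4.92 in ROR1xTCL1, against 6.22, 4.88, 5.76 and 4.83 in TCL1, high on TCL1 arrays a and c as was the neutrophil score, of which it is a marker. Its difference was -0.79 ± 0.31 (SE). Eomes, of cytotoxic lymphocytes, differed by -0.18 ± 0.16 and Cebpb by 0.22 ± 0.23 (SE). Leaving out 1 array at a time also turned the sign of the median in each of the other gene lists, from -0.06 to 0.01 in the other B lineage factors, -0.02 to 0.04 in genes activated by PAX5 and EBF1, -0.08 to 0.05 in pro-B and pre-B cell genes, -0.05 to 0.16 in FOXO1 targets and -0.05 to 0.05 in factors of other lineages.

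The median pooled within-group SD of the 8 factors of the gene table was 0.27 log2 units. It was 0.23 in pro-B and pre-B cell genes, 0.35 in genes activated by PAX5 and EBF1, 0.36 in factors of other blood lineages, 0.37 in the other B lineage transcription factors, 0.38 in FOXO1 targets, 0.66 in genes repressed by PAX5 and 0.74 in BACH2-repressed and plasma cell genes, against 0.22 over all genes. These medians were not tested against each other. Among the pro-B and pre-B cell genes, Rag2, Dntt, Rag1, Erg, Cd93, Sox4 and Flt3 had means of 2.13 to 4.79. These means lie below the median gene of every array and are not shown to exceed background, where an SD says little about expression.

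The name Tcf3 needs care on this platform. In the array's annotation Tcf3 is the older name of Tcf7l1, a Wnt pathway factor, and the E2A gene is called Tcfe2a. The 25 probe sets of Tcfe2a averaged 7.71 in ROR1xTCL1 and 7.84 in TCL1, and the gene table's Tcf3 7.47 in ROR1xTCL1 and 7.59 in TCL1. The 17 probe sets that the annotation calls Tcf3 averaged 4.25 in ROR1xTCL1 and 4.20 in TCL1, beside 4.28 in ROR1xTCL1 and 4.20 in TCL1 for Tcf7l1 in the gene table. The gene table's Tcf3 was therefore read as E2A, and probe sets were assigned in the same sense.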

How the data were processed

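Leukemia RNA was hybridised to Affymetrix Mouse Exon 1.0 ST arrays, 1 for each of 8 animals, 4 per group. Per the labels, the deposited probe set table holds log2 values made by the authors with RMA in the Bioconductor package oligo, and the submitters' processing notes name R 2.15.1. The deposited gene table was read as log2 from its range, and its scale is not stated. According to the series text the Affymetrix Exon Array Computational Tool was used, with no account of how probe sets were joined into genes. RMA removes differences in total signal, so each value is relative to the rest of its array.

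Of 16495 gene rows, 4 with a number for a name were dropped and 72 repeated names were averaged, which left 16419 genes. Names were updated through the RefSeq gene table of GRCm38.p6, where 14742 were current and 1439 were synonyms, and 238 stayed as deposited. Probe sets were used where the platform annotation gave 1 symbol (321091), not where it gave several (7796) or none (907200). The design assumed gene table values for all 10 factors, and means of probe sets were used for Ikzf3 and Spib. Co-variation was therefore tested over 28 pairs and not 45, with all 45 on means of probe sets.

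All genes were fitted with limma 3.58.1 in R 4.3.3 (lmFit, eBayes, 2-sided, ROR1xTCL1 minus TCL1, Benjamini-Hochberg over all genes, threshold 0.05). Probe sets were fitted in the same way, and the fit was tested on simulated data. Permutation tests were exact, over 70 orderings of arrays or 40320 pairings. Precision is limited by the number of arrays, with a median half-width of 0.34 log2 units for the 95% interval of a gene. Alternatives were trend and robust estimation, a filter at a mean of 5, quantile normalization, sex as a covariate, means or medians of probe sets, the replicate number as a block, and leaving out each array in turn. The monocyte and macrophage score was added after seeing the data.

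The factors and gene lists were chosen with earlier results of these data known. Genes named are the 10 factors, the 4 of smallest unadjusted p of each list, the 3 most like each factor, Ror1, and markers. Genes outside this rule were picked with their values in view, as is stated beside them.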

Additional observations from a re-analysis of the deposited data

Results flagged for a closer look

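In ROR1xTCL1 array c, Spi1 read 8.842, apart from the other 3 ROR1xTCL1 arrays at 8.735 to 8.745. Its gap to the nearest of them was 0.907 of the range of the group, above Dixon's 95% critical value for 4 samples. The TCL1 arrays ran from 8.60 to 9.03, so the value lies inside the range of the other group. 20 groups of 4 were tested in this way, and chance gives about 1 in 20.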

How the results depend on the processing

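No factor passed the threshold under any of the 154 alternatives run on the 10 differences, and no difference exceeded 0.29 log2 units in size. The smallest adjusted p of the limma fits among them was 0.999. The sign turned in 29 of the 154. Counted in the 154 is the exact permutation test of each of the 10 factors, which has no adjusted p and cannot turn a sign. With sex as a covariate the difference of Pax5 was -0.047, of Ikzf1 -0.0013 and of Spib 0.0016, the last an alternative chosen after seeing the data. That of Tcf3 kept its sign, at -0.26 ± 0.21 with this covariate against -0.12 ± 0.26 without it (SE). With means of probe sets Pax5 was at -0.0049 and Bach2 at 0.079, and with medians Pax5 was at -0.069, Ikzf1 at -0.027 and Bach2 at 0.064. Leaving out 1 array at a time gave -0.081 to 0.15 for Pax5, -0.049 to 0.19 for Ebf1, -0.26 to 0.10 for Tcf3, -0.12 to 0.15 for Ikzf1, -0.24 to 0.15 for Spib, -0.016 to 0.17 for Foxo1, -0.27 to 0.041 for Bach2 and -0.29 to 0.16 for Pou2af1. Ikzf3 (-0.14 to -0.04) and Spi1 (-0.17 to -0.03) kept their sign. The r of Ikzf1 and Foxo1 was -0.11 without TCL1 arrays b and d. The causes were not tested. The count of genes called was 0 in every alternative run, with 268 of 16419 at an unadjusted limma p under 0.05 in the gene table. 0 of the 157 probe sets were called in any alternative, with 0 to 2 at an unadjusted p under 0.05. Over all 1236087 probe sets the count called was 0, and it was 1 with trend and robust estimation, 2 without ROR1xTCL1 replicate 1 and 2 without TCL1 replicate 4. Replicate numbers were not shown to pair the samples, since deviations of same-numbered samples correlated at 0.233, -0.00614, 0.217 and 0.111. With the replicate number as a block on means of probe sets, 0 genes were called, and 574 against 423 without it had an unadjusted limma p under 0.05. Each replicate number holds 1 sample of each group, so this block cannot change the differences themselves. Pax5 stayed at -0.0049 and Bach2 at 0.079, and their turned signs are counted under both settings.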
